A study of Mus musculus with 15 samples.

Results

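The smooth muscle contractile genes are 10 genes, *Acta2*, *Actg2*, *Cnn1*, *Myh11*, *Mylk*, *Myl9*, *Tagln*, *Tpm2*, *Lmod1* and *Smtn*, chosen by name from the machinery that shortens smooth muscle cells. They are 10 of the 18193 genes that had a probe set of their own on the array, and all 10 passed the filter on dim probe sets that left 12143 genes for testing. Their expression was measured in 5 sorted populations of mouse mammary epithelial cells, with 3 Affymetrix arrays each and 15 in all. The basal fraction, in which mammary stem cells are enriched (MaSC), was sorted as Lin-CD24+CD29hi from adult virgin wild-type C57BL/6 females, and the same glands gave luminal progenitors (LP), which were Lin-CD24hi, CD29+ and CD61+, and mature luminal cells (ML), sorted likewise but CD61-. Alveolar luminal cells (AL) were Lin- cells carrying yellow fluorescent protein (YFP), isolated from Wap-Cre;R26Y females at midgestation. Their counterpart in virgin females of that genotype, Lin-YFP+ cells, was called alveolar luminal stem/progenitor cells (ALP). Lin- means that cells bearing CD31, CD45 or TER119 were sorted away. The Wap-Cre transgene drives Cre recombinase from the promoter of a milk protein, whey acidic protein, and Cre permanently turns on the R26Y reporter, so that a YFP+ cell either expresses Cre or descends from one that did.

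Smooth muscle cells contract when myosin filaments pull on actin filaments. Calcium entering the cytoplasm activates myosin light chain kinase, which phosphorylates the myosin regulatory light chain, and calponin, tropomyosin and related proteins sit along the actin filament. Many of these genes are controlled by serum response factor (SRF), which binds the CArG box, together with coactivators of the myocardin family. In the mammary gland the same machinery is known from myoepithelial cells, the contractile cells of the basal layer that squeeze milk from the alveoli when oxytocin is released. How far the basal and luminal populations differed in this machinery, and which members departed from the rest, are the questions addressed here.

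The array annotation placed 18 probe sets on the 10 genes, and each gene was represented by its probe set of highest mean log2 intensity. Values below are intensities as deposited, in dChip units, and they are compared between populations within a gene and not between genes. Medians over all probe sets ranged from 136.8 to 209.9 between arrays. Across the tested genes, arrays of the same population correlated at 0.943 to 0.989 (Pearson's r) in MaSC, LP, ML and AL and at 0.901 to 0.97 in ALP. Replicate 3 of ALP stood apart: *Ptprc*, which encodes the CD45 used to deplete leukocytes, reached 2795 there, against 93.6 at most in AL. Comparisons of the 10 genes with ALP are therefore given with and without that array. Whether the replicates of AL and of ALP were different animals is not stated, and p-values therefore cover the spread among the arrays at hand, which may be technical.

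The CArG box was looked for on both strands in the 250 bases before 1 annotated start site per gene, in promoter sequences of RefSeq (mouse build GRCm38.p6), which held 7 of the 10 genes. *Actg2*, *Myh11* and *Tagln* were not among them. An exact CArG box lay in 1 of the 7 windows, that of *Myl9*, and in 1.47% of all 32851 windows. Sequences with 1 G or C among the 6 central bases lay in 2 of the 7 windows, those of *Myl9* and *Acta2*, and in 7.24% of all windows. These 30-base stretches are shown because they hold the binding motif by which the gene class is known, with the motif in capitals.
Myl9 exact CArG box: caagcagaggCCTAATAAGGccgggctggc
Myl9 near match: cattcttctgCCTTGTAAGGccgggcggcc
Acta2 near match, distal: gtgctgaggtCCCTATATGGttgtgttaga
Acta2 near match, proximal: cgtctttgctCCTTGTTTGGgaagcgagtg
The *Myl9* stretches are at chr2:156775293-156775322 and chr2:156775355-156775384 on the plus strand, and those of *Acta2* at chr19:34255438-34255467 and chr19:34255388-34255417 on the minus strand. By the RefSeq annotation both *Acta2* stretches lie inside the span of the gene (chr19:34240336-34255585), and both *Myl9* stretches lie before the span of theirs (chr2:156775408-156781657). The *Mylk* window (chr16:34784700-34784949) lies inside the span of its gene (chr16:34745199-35002436). The motif CATTCC, either strand, lay in 4 of the 7 windows (*Lmod1*, *Smtn*, *Mylk* and *Acta2*) and in 12.6% of all windows. A match describes the letters only, and a window without a match says nothing about the factor.

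Basal cells had the highest level of all 10 genes. By limma, 10 of 10 were higher in MaSC than in LP, with folds from 2.65 to 312 and a median log2 difference of 5.38, while 15.8% of all tested genes were called higher in MaSC and 23.1% higher in LP and the median over all genes was -0.07. Against ML, 10 of 10 were higher in MaSC with folds from 8.15 to 1206 and a median log2 difference of 5.85, beside backgrounds of 27.1% (higher in MaSC) and 32.4% (higher in ML). The gap to the YFP+ populations was smaller. Against AL the 10 genes were 2.15- to 15.3-fold higher in MaSC (median log2 difference 2.68, backgrounds 28.1% and 31.3%), and against ALP they were 3.07- to 37.8-fold higher (median 2.27, backgrounds 16.7% and 21.7%). Without ALP replicate 3 the folds over ALP were 3.57 to 108.5, with a median log2 difference of 2.96 and again 10 of 10 genes called. A fit to the 6 arrays of MaSC and ALP alone called 2 of 10. Student's t-test on log2 intensity, below the methods' t-test, called 9 unadjusted and 0 after Benjamini-Hochberg adjustment. The study's methods name that test in general, and name no test per gene for these array comparisons. Of all 12143 genes, 4365 were called without ALP replicate 3 and 1349 by the 6-array fit, in either direction. The t-test called 3472 unadjusted and 168 after adjustment. In these bulk samples, a smaller share of expressing cells and less RNA per cell cannot be told apart.

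**Figure D1:**
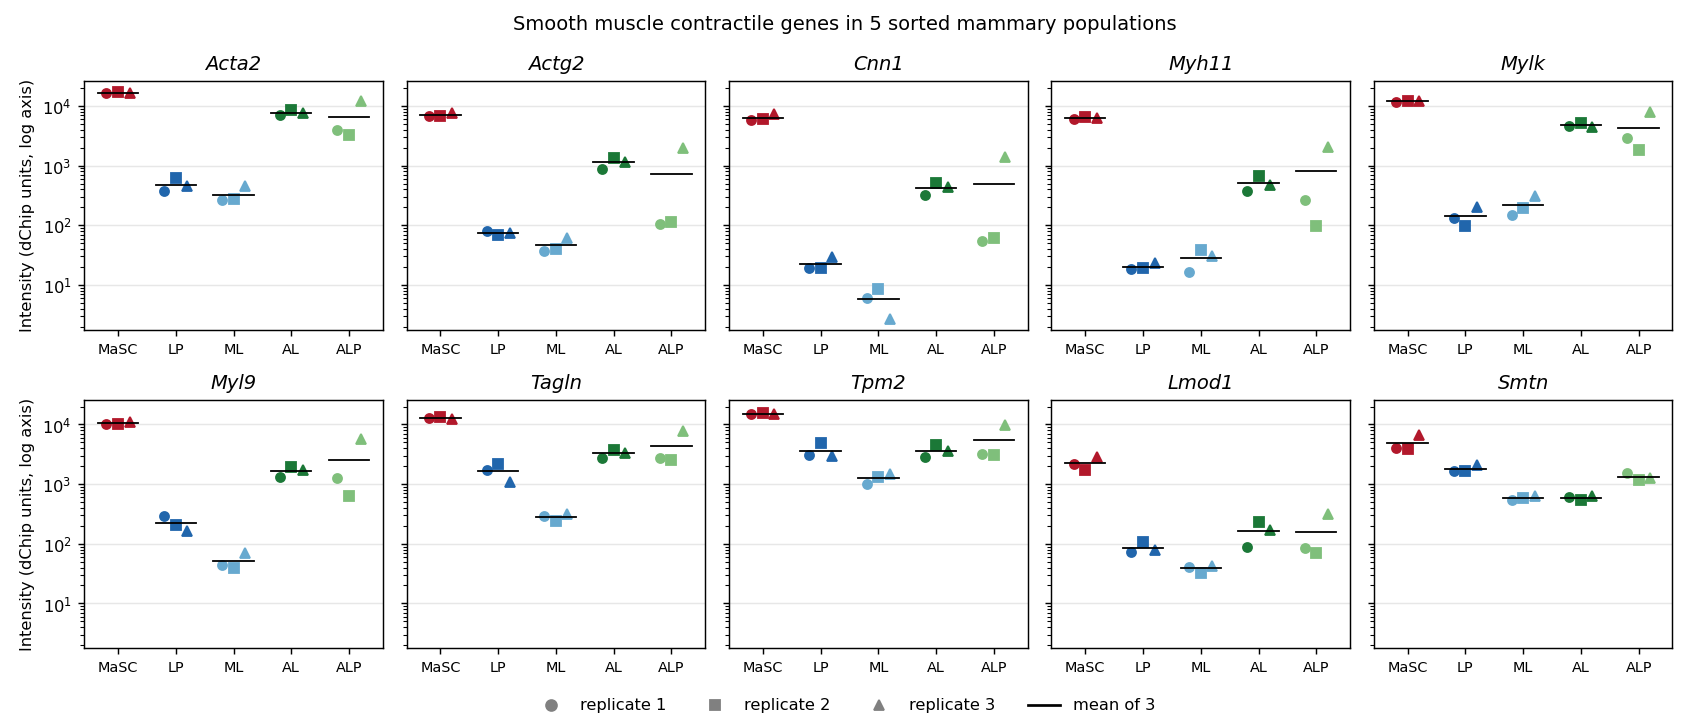
Intensity of each contractile gene (dChip units, log axis) in the 5 populations, with 1 point per array, the marker shape giving the replicate, and a bar at the mean of 3 arrays. MaSC is highest in every panel, AL lies above LP for *Acta2*, *Actg2*, *Cnn1*, *Myh11*, *Mylk*, *Myl9* and *Tagln*, and ALP replicate 3 lies above the other ALP arrays in 9 of 10 panels.

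*Acta2* encodes smooth muscle alpha-actin, the main actin of smooth muscle thin filaments. The MaSC arrays read 16568, 16933 and 16364, the LP arrays 374, 626 and 448, the ML arrays 262, 271 and 449, the AL arrays 6946, 8619 and 7717, and the ALP arrays 3931, 3306 and 12157. The MaSC arrays were bright and alike, LP and ML overlapped at the bottom, and AL lay between, clear of both. In AL *Acta2* exceeded LP by 16.4-fold (log2 difference 4.04, SE 0.40, adjusted p = 1.88e-05) and 24.4-fold higher than in ML (adjusted p = 3.22e-06), and its mean in AL came to 46.7% of that in MaSC. The other *Acta2* probe sets gave 11.35% and 23.8% in AL, and 12.3% and 25.0% in LP. With the probe set used, MaSC exceeded AL by 2.15-fold (adjusted p = 0.0327). This last call was lost when any 1 array of MaSC or AL was left out, with adjusted p from 0.0541 to 0.0861. Without ALP replicate 3 the same call passed at an adjusted p of 0.00122, with an SE of 0.22 in place of 0.40.

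*Actg2* encodes the gamma isoform of smooth muscle actin. Intensities were 6746, 6900 and 7672 for MaSC, 79.9, 67.8 and 73.6 for LP, 36.9, 40.6 and 60.2 for ML, and 877, 1367 and 1157 for AL. All AL arrays were far brighter than any LP or ML array, and all MaSC arrays were brighter still. The AL level was 15.2-fold above LP (log2 difference 3.92, SE 0.83, adjusted p = 0.00274) and 15.96% of the MaSC mean. ALP gave 104, 112 and 1958, so its mean of 725 rested on replicate 3.

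*Myh11*, the smooth muscle myosin heavy chain, encodes the motor itself. MaSC arrays gave 5995, 6484 and 6384, LP arrays 18.3, 19.0 and 23.4, ML arrays 16.4, 38.5 and 30.5, AL arrays 379, 673 and 471, and ALP arrays 262, 99.2 and 2051. It was 312-fold higher in MaSC than in LP (log2 difference 8.29, SE 0.80, adjusted p = 2.78e-05) and 24.5-fold higher in AL than in LP (adjusted p = 0.000758), whereas LP and ML overlapped. With 16 added before log2 these folds were 174 and 14.1. The AL mean was 8.07% of the MaSC mean with this probe set and 4.44% with the other.

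*Myl9*, the regulatory light chain that the kinase phosphorylates, separated LP from ML as well. The MaSC arrays read 10137, 10234 and 11221, LP 288, 206 and 162, ML 43.9, 39.98 and 69.4, AL 1299, 1944 and 1725, and ALP 1255, 641 and 5613. MaSC, AL, LP and ML were each clear of the others, and ALP overlapped only AL. The level in LP exceeded that in ML by 4.29-fold (log2 difference 2.10, SE 0.59, adjusted p = 0.0117) and 7.67-fold higher in AL than in LP (adjusted p = 0.00188).

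*Mylk* encodes the kinase itself. It read 11719, 11946 and 12165 on the MaSC arrays, 4539, 5131 and 4518 on AL, 2901, 1863 and 7986 on ALP, 131, 98.9 and 205 on LP and 149, 197 and 305 on ML. The AL arrays were all far above LP and ML, which overlapped. The AL mean was 39.6% of MaSC with this probe set and 10.5% and 18.0% with the other 2, the fold over LP was 34.1 (log2 difference 5.09, SE 0.45, adjusted p = 7.89e-06), and the fold of MaSC over AL was 2.53 (adjusted p = 0.0218). The MaSC-over-AL call was lost without MaSC replicate 3 (adjusted p = 0.0504), AL replicate 1 (0.0541) or AL replicate 3 (0.0557). Without ALP replicate 3 it passed at an adjusted p of 0.00207.

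Among the proteins that decorate the thin filament, *Cnn1* had the widest range. *Cnn1*, which encodes calponin, read 5775, 6071 and 7269.8 on the MaSC arrays, 19.3, 19.4 and 29.6 on LP and 6.15, 8.66 and 2.73 on ML. LP and ML were both close to the bottom of the scale, where folds depend on the treatment of low values: 1206-fold over ML became 293-fold when 16 was added to each intensity before taking log2. ALP gave 54.9, 62.2 and 1384. In AL *Cnn1* gave 328, 505 and 431, all above every LP and ML array, an 18.6-fold rise over LP (log2 difference 4.22, SE 0.95, adjusted p = 0.00385) to 6.61% of the MaSC mean.

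*Tagln*, which encodes the calponin relative transgelin (SM22), and *Tpm2*, which encodes beta-tropomyosin, kept much higher shares in LP. *Tagln* read 12734, 13197 and 12309.9 on the MaSC arrays, 1724, 2201 and 1090.3 on LP, 295, 240.1 and 322 on ML, 2787, 3736 and 3294 on AL, and 2699.8, 2540.1 and 7893 on ALP. LP, ML and AL did not overlap, and LP was 5.66-fold above ML (log2 difference 2.50, SE 0.37, adjusted p = 0.00027). AL was 2.02-fold above LP (adjusted p = 0.0432). This call was lost in many alternatives, among them without LP replicate 3 (adjusted p = 0.165) and without AL replicate 2 (0.12). Without ALP replicate 3 it passed at an adjusted p of 0.00281. *Tpm2* read 14957, 15494 and 15201 on the MaSC arrays, 3085, 4917 and 2960.2 on LP, 1010.03, 1325 and 1483 on ML, 2877, 4465 and 3559 on AL, and 3177, 3118 and 9988 on ALP. Here AL and LP overlapped, at 23.9% and 24.0% of the MaSC mean, and the log2 difference between them was 0.01 (SE 0.38, adjusted p = 0.988).

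*Lmod1* encodes leiomodin 1, which nucleates actin filaments in smooth muscle. MaSC arrays gave 2139.9, 1747 and 2895, LP 72.0, 108 and 78.1, ML 41.2, 32.2 and 42.8, AL 89.3, 229 and 167, and ALP 85.6, 70.7 and 315. AL and LP overlapped (log2 difference 0.83, SE 0.50, adjusted p = 0.191), and AL was 3.92-fold above ML (adjusted p = 0.00548).

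*Smtn*, which encodes the actin-binding protein smoothelin, departed from the others. The MaSC arrays read 4084, 3915 and 6671, LP 1645, 1665 and 2090.3, ML 540.2, 586 and 622, AL 608, 539 and 622, and ALP 1515, 1168 and 1245. MaSC was highest here too, but LP came next and AL fell to the level of ML, which it overlapped. *Smtn* was 3.04-fold lower in AL than in LP (log2 difference -1.60, SE 0.19, adjusted p = 5.15e-05) and 2.21-fold lower in AL than in ALP (adjusted p = 0.000631), and its log2 difference between AL and ML was 0.02 (SE 0.19, adjusted p = 0.947). Over the 12 luminal arrays, Pearson's r of *Smtn* with each other member had a median of -0.02, against medians of 0.696 for *Tpm2* to 0.909 for *Acta2*. These correlations describe arrays that fall into 4 populations, and the arrays of a population share their sort.

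The share of the MaSC level kept in each population summarises the set. LP had 0.32% (*Myh11*) to 36.8% (*Smtn*) with a median of 2.49% over the 10 genes, and ML had 0.09% (*Cnn1*) to 11.9% (*Smtn*) with a median of 1.77%. AL had 6.61% (*Cnn1*) to 46.7% (*Acta2*) with a median of 15.8%. These shares are for the probe set used. The others of *Acta2* gave 11.35% and 23.8% in AL, against 12.3% and 25.0% in LP. The other probe set of *Myh11* gave 4.44% in AL, against 2.86% in LP. ALP had a median of 25.3% when all 3 arrays were averaged and of 14.5% without replicate 3. Without that array the shares in ALP were 0.92% for *Cnn1*, 1.52% for *Actg2*, 2.87% for *Myh11*, 3.46% for *Lmod1* and 9.0% for *Myl9*. *Acta2* went from 38.9% to 21.8%, *Tpm2* from 35.7% to 20.7%, *Tagln* from 34.3% to 20.6% and *Mylk* from 35.6% to 19.9%, whereas *Smtn* had 26.8% with the array and 27.4% without it.

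**Figure D2:**
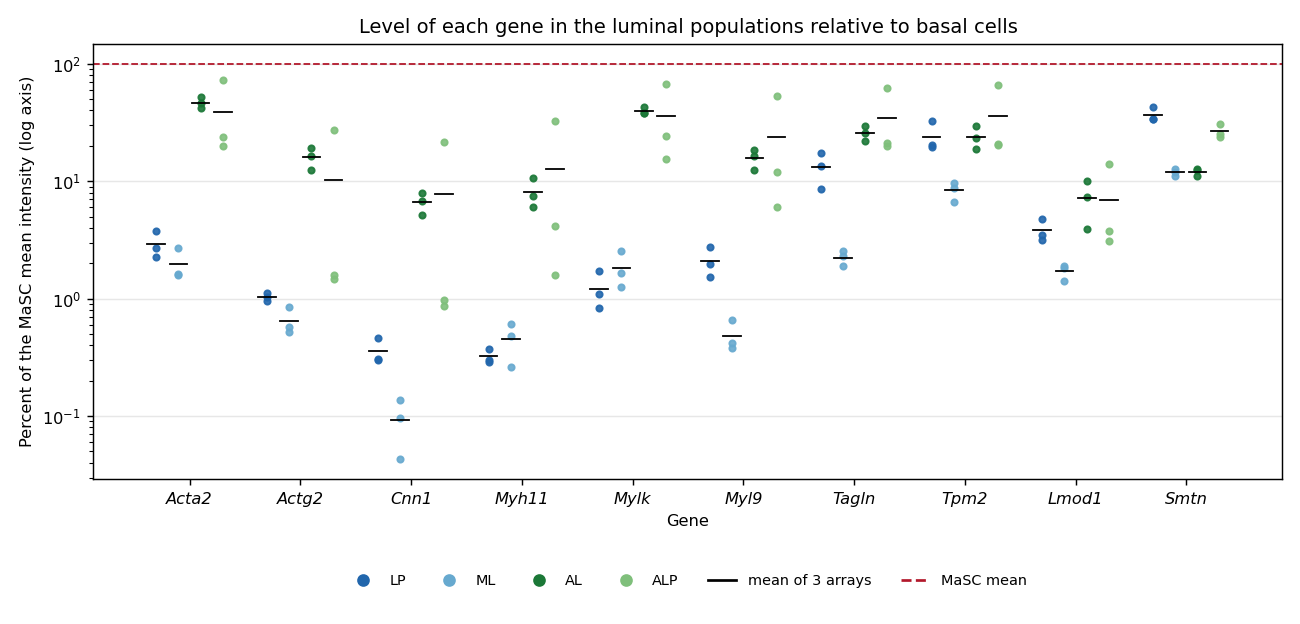
Level of each gene in the luminal populations as a percent of its MaSC mean (log axis), with 1 point per array and a bar at the mean of 3 arrays; the dashed line marks the MaSC mean. The AL means lie between 6.61% and 46.7% and single AL arrays between 3.95% and 51.9%, and the means of LP and ML lie lower than those of AL for most genes but not for *Smtn*, which is highest in LP among these populations.

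Part of the set was higher in LP than in ML. LP exceeded ML for 4 of 10 genes, *Myl9*, *Tagln*, *Tpm2* (2.83-fold, adjusted p = 0.00731) and *Smtn* (3.08-fold, adjusted p = 5.26e-05), and none was lower, with backgrounds of 27.3% higher in LP and 21.7% higher in ML. The median log2 difference of the 10 genes was 1.32, against 0.04 over all tested genes. *Acta2*, *Actg2*, *Myh11* and *Mylk* had log2 differences from -0.59 to 0.72, and none of them passed. Without ALP replicate 3, where the SE of *Acta2* was 0.22 in place of 0.40, *Acta2*, *Actg2*, *Cnn1* and *Lmod1* joined the genes higher in LP, 8 in all. A fit to the 6 arrays of LP and ML alone called 7. The methods' t-test called 7 unadjusted and 6 after adjustment. All of these were higher in LP. Of all 12143 genes, 6401 were called without ALP replicate 3 and 6599 by the 6-array fit, in either direction. The t-test called 7108 unadjusted and 6002 after adjustment.

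Marked cells of pregnancy held more of most contractile transcripts than LP and ML. AL exceeded LP for 7 of 10 genes and was lower for 1, *Smtn* (backgrounds 21.3% higher in AL and 24.2% higher in LP), with a median log2 difference of 3.43 against -0.03 over all tested genes. With the second brightest probe set of each gene that has several, 5 were higher in AL, since *Acta2* (log2 difference -0.12, adjusted p = 0.803) and *Myh11* (adjusted p = 0.312) no longer passed. AL exceeded ML for 9 of 10, the exception being *Smtn* (backgrounds 28.7% higher in AL and 24.8% higher in ML), with a median of 4.35. The widest of these folds was that of *Cnn1* over ML, 78.9 (log2 difference 6.30, SE 0.95, adjusted p = 0.000184). It was 19.9 when 16 was added before taking log2. With the second brightest probe sets 8 of 10 were higher in AL than in ML, since *Acta2* (adjusted p = 0.153) no longer passed.

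Marked virgin cells differed from LP for fewer genes. ALP exceeded LP for 4 of 10 genes, where 3.58% of all genes were called higher in ALP and 3.95% higher in LP. These were *Mylk* (25.3-fold, log2 difference 4.66, SE 0.45, adjusted p = 0.000544), *Myh11* (18.7-fold, adjusted p = 0.012), *Acta2* (11.5-fold, adjusted p = 0.000955) and *Myl9* (7.77-fold, adjusted p = 0.0146). Without ALP replicate 3 the same 4 genes passed, with smaller folds of 16.8, 8.01, 7.64 and 4.21. That fit called 482 of all 12143 genes in either direction. With the second brightest probe sets, *Acta2* (log2 difference 0.65, adjusted p = 0.25) and *Myh11* (0.41, adjusted p = 0.567) no longer passed by limma. A fit to the 6 arrays of ALP and LP alone called 0 of the 10 by limma, and 4 of all 12143 genes, while at an unadjusted p under 0.05 it had 4 of the 10 higher and 1 lower in ALP. ALP exceeded ML for 10 of 10 genes, with folds of 2.24 to 33.4, beside backgrounds of 21.1% higher in ALP and 15.6% higher in ML. Without ALP replicate 3 all 10 still passed, with folds of 2.02 to 18.1, and that of *Cnn1* fell from 31.9 to 11.1 and that of *Actg2* from 6.33 to 2.41. The 6-array fit called 6 of 10, and the methods' t-test after adjustment called 4. Of all 12143 genes, 4987 were called without ALP replicate 3, 2739 by the 6-array fit and 1293 by the t-test, in either direction. With the second brightest probe sets limma called 9 of the 10, since *Myh11* (adjusted p = 0.0619) no longer passed.

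The contrast of AL with ALP turned on 1 array, replicate 3 of ALP. With all arrays, limma called 0 of 10 genes higher in AL (1 at an unadjusted p under 0.05, and 0 by the methods' t-test) and 1, *Smtn*, lower (backgrounds 18.7% higher in AL and 21.2% higher in ALP). For 9 of the 10 genes ALP replicate 3 was brighter than both other ALP arrays, by 3.01-fold (*Tagln*) to 23.6-fold (*Cnn1*) over their mean, and *Smtn* was the exception at 0.93-fold. Without that array 6 genes were higher in AL: *Actg2* (10.3-fold, adjusted p = 3.66e-06), *Cnn1* (7.10-fold, adjusted p = 0.000325), *Myh11* (3.06-fold, adjusted p = 0.0106), *Acta2* (2.14-fold, adjusted p = 0.00507), *Mylk* (2.03-fold, adjusted p = 0.0277) and *Lmod1* (1.94-fold, adjusted p = 0.0493). *Smtn* remained lower in AL, by 2.26-fold (adjusted p = 0.00163). In the fit without that array, 4937 of all 12143 genes were called in either direction.

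**Figure D3:**
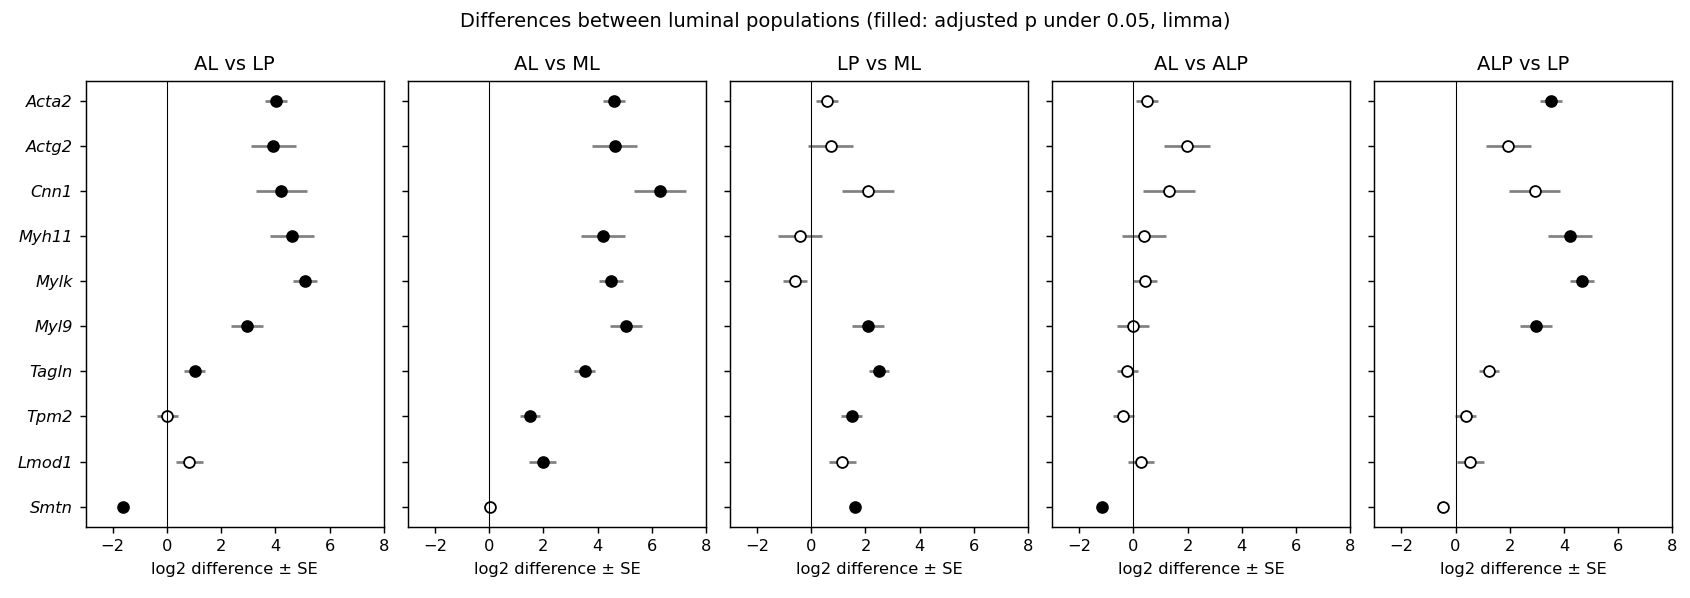
Fitted log2 differences with standard errors for 5 comparisons between luminal populations (first minus second), with filled points for an adjusted p under 0.05 by limma on all 15 arrays. *Smtn* lies below 0 where AL is compared with LP and ALP, while 7 genes lie above 0 as filled points between AL and LP.

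Basal markers moved with the contractile genes in AL. *Krt5* and *Krt14*, keratins of basal cells, were 12.9-fold (adjusted p = 0.00122) and 5.39-fold (adjusted p = 0.00484) higher in AL than in LP, and *Snai2* and *Jag2* passed as well, so that 4 of 6 basal markers were higher in AL. Their AL means were 9.76% of MaSC for *Krt5*, 28.6% for *Krt14*, 6.62% for *Snai2* and 7.54% for *Jag2*. *Trp63*, the transcription factor p63 that defines the basal layer, was 352 to 480 in AL and 310 to 546 in LP, and *Krt17* also missed the test (adjusted p = 0.999). The part of basal cells in the AL values was not tested.

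Markers of other cells that contract or surround the epithelium were followed by array. The mean log2 intensity of 8 pericyte and vascular smooth muscle markers ran from 4.69 to 5.15 in ML and from 6.57 to 6.99 in LP. It ran from 6.64 to 7.50 in MaSC, from 7.73 to 7.93 in AL and from 8.33 to 10.4 in ALP. *Rgs5*, a pericyte gene, reached 999.9 to 1151 in AL and 1844 to 6973 in ALP. It reached 504 to 731 in MaSC and at most 64.2 in LP. Of the 5 markers of this list that were tested, 1, *Rgs5*, was higher and 0 were lower in AL than in LP. The median log2 difference of the 5 was -0.13. The mean of 6 endothelial markers ran from 4.75 to 5.14 in MaSC, from 4.88 to 5.06 in ML, from 5.90 to 5.96 in LP, from 7.07 to 7.32 in AL and from 7.78 to 10.8 in ALP. Leukocyte markers (6 genes) ran from 5.88 to 7.85 over MaSC, LP and ML, 8.76 to 9.21 in AL and 8.13 to 12.9 in ALP. In each of these lists the highest array was ALP replicate 3. The part of such cells in the AL and ALP levels was not tested.

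Fibroblast markers followed a different order. Their mean (7 genes) ran from 6.16 to 6.70 in ML, from 8.71 to 9.42 in MaSC, from 11.7 to 12.3 in AL, from 12.03 to 12.7 in LP and from 12.5 to 13.4 in ALP. By the test, 7 of 7 were lower in MaSC than in LP, 7 of 7 were higher in LP than in ML, and 1 of 7 was lower in AL than in LP. *Tagln*, *Tpm2*, *Myl9* and *Smtn* were higher in LP than in ML, and so were the fibroblast markers. Between AL and ML, 6 of 7 fibroblast markers were higher in AL, as were *Tagln*, *Tpm2* and *Myl9*. *Smtn* differed there by a log2 difference of 0.02. The part of fibroblasts in the difference between LP and ML was not tested.

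**Figure D4:**
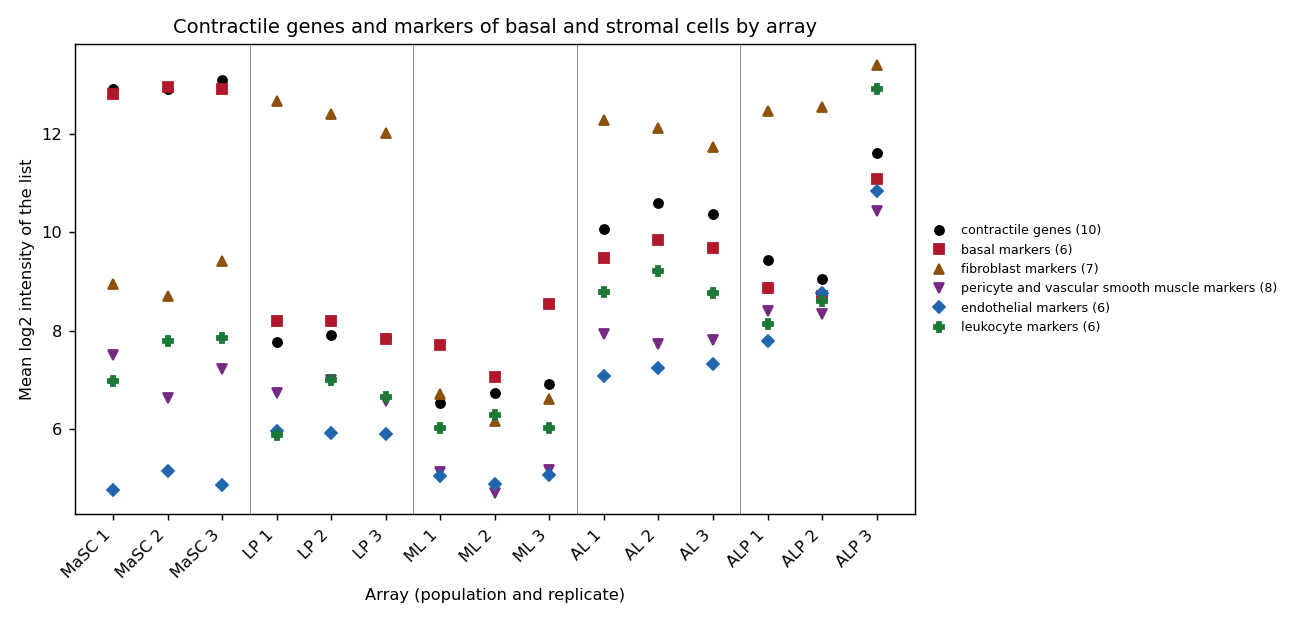
Mean log2 intensity per array of the 10 contractile genes and of 5 marker lists, with arrays ordered by population and replicate. Contractile and basal means are highest in MaSC, fibroblast means are high in LP, AL and ALP, and ALP replicate 3 is highest for leukocyte, endothelial and pericyte markers.

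The populations carried the markers of their labels with limits. Basal markers were higher in MaSC than in each other population for 6 of 6 genes, luminal progenitor markers were higher in LP than in ML for 4 of 4, and mature luminal markers were higher in ML than in LP for 3 of 3. Milk protein genes were higher in AL than in ML for 4 of 4 and than in LP for 2 of 4. In ALP, 0 of 4 milk protein genes and 0 of 4 luminal progenitor markers were called against LP. Against ML, 4 of 4 and 3 of 4 of them were higher in ALP. Mature luminal markers were higher in ALP than in LP for 1 of 3, and 0 of 3 were called between ALP and ML. Luminal markers were lower in MaSC than in LP and than in ML for 5 of 6 genes (median log2 differences -0.24 and -0.27). They were lower in MaSC than in AL for 2 of 6 and than in ALP for 3 of 6. *Krt8*, a luminal keratin, was still bright in MaSC, at 12949.5 to 14254, against 14067 to 16476 in the luminal populations.

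Probe sets of a gene did not always rank AL and LP alike. All 18 probe sets were highest in MaSC, with MaSC over LP ratios of mean intensity from 1.82 to 310.5. For *Mylk* all 3 probe sets were brighter in AL than in LP, at ratios of 32.6, 30.2 and 1.64. For *Acta2*, however, the second probe set gave 546, 474 and 495 in AL and 540, 587 and 514 in LP, which overlap, and the third, dimmer one had an AL over LP ratio of 0.95, while the probe set used differed 16.1-fold in mean intensity. By the ending of its name (_s_at) the latter may bind transcripts of related genes. With the second probe set the log2 difference between AL and LP was -0.12 (adjusted p = 0.803). For *Myh11* the second probe set gave 41.3, 51.6 and 19.7 in AL and 26.6, 23.4 and 22.5 in LP. For *Tpm2* the dimmest of 4 probe sets gave 85.7, 172 and 193 in AL against 1272, 1965 and 1052 in LP, a 9.52-fold lower mean, and the other 3 had AL over LP ratios of 0.99 to 1.38. The other 6 genes had 1 probe set each.

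**Figure D5:**
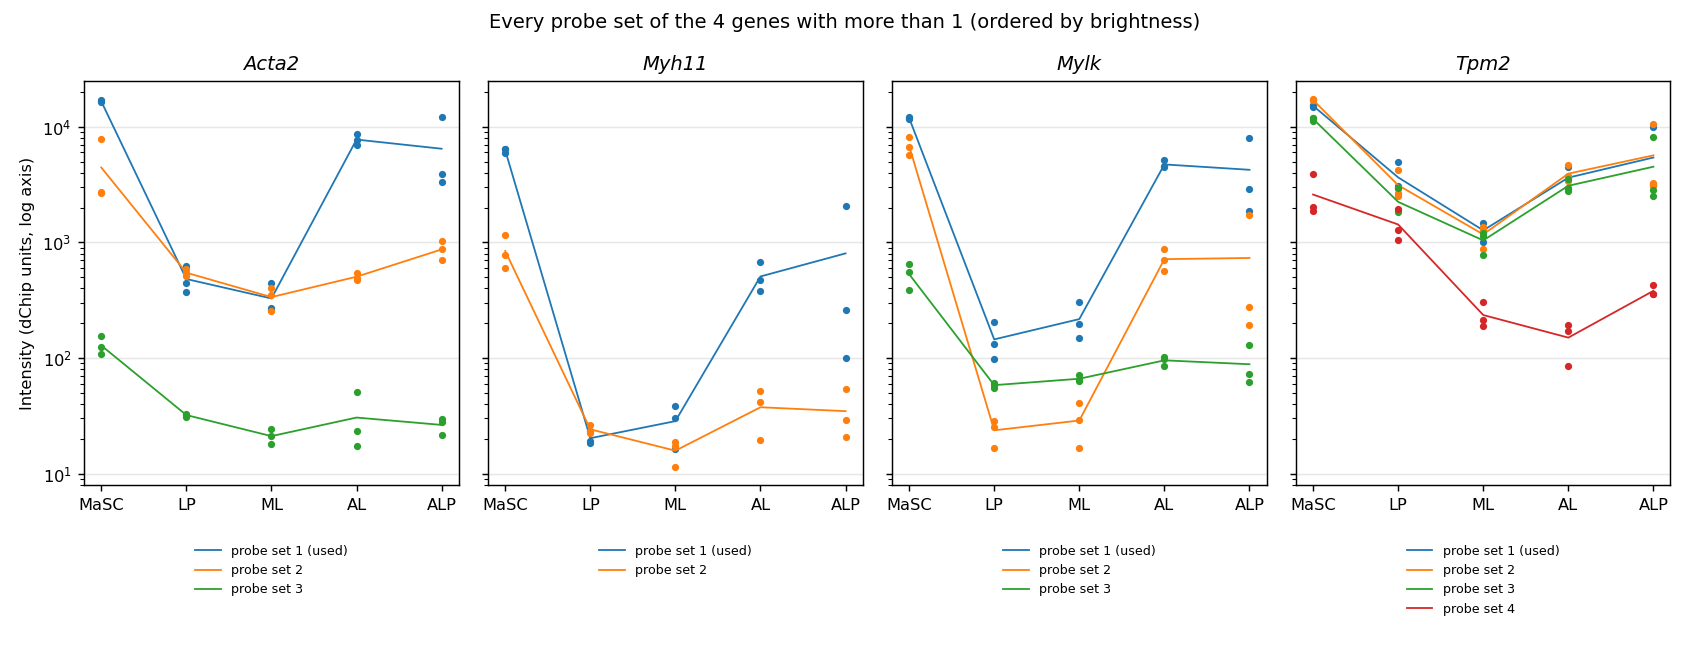
Intensity (dChip units, log axis) of every probe set of *Acta2*, *Myh11*, *Mylk* and *Tpm2* in the 5 populations, with points for arrays and lines joining population means. All are highest in MaSC, the brightest probe sets of *Acta2* and *Myh11* rise from LP to AL while their second ones stay near LP, and the dimmest *Tpm2* probe set is lower in AL than in LP.

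The wider contractile pathway did not follow the 10 genes as a block. Of 87 tested genes in 7 related lists, 32 were higher and 15 lower in MaSC than in LP, with a median log2 difference of 0.05. Among all tested genes, 15.8% were higher and 23.1% lower in MaSC, with a median of -0.07. Of the 87, 10 were higher and 35 lower in AL than in LP, with a median of -0.21 (backgrounds 21.3% and 24.2%). Against AL, 45 were higher in MaSC and 8 lower (backgrounds 28.1% and 31.3%). The backgrounds of a comparison apply to each list below too.

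Other actins, tropomyosins and thin filament proteins (13 genes) included 3 higher and 2 lower in MaSC than in LP (backgrounds 15.8% and 23.1%). *Cald1*, which encodes the actin-binding caldesmon, was higher (log2 difference 1.40, SE 0.20, adjusted p = 0.000266) and kept 38.3% of its MaSC level in LP and 43.5% in AL. *Actc1*, the cardiac actin, was also higher, and *Actg1*, a cytoplasmic actin, was lower by a small margin (-0.29, SE 0.07). Of the other myosin chains (8 genes), 2 were higher and 5 lower: *Myh10*, a non-muscle heavy chain, was higher (log2 difference 2.07, SE 0.42, adjusted p = 0.00254), and *Myh14* (-1.32), *Myl6* (-1.11) and *Myl6b* (-1.40) were lower. In this class the sign therefore differed between genes: *Myh10* went with the members *Myh11* and *Myl9*, and *Myh14*, *Myl6* and *Myl6b* went against them.

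Genes that set the phosphorylation of myosin (10 genes) had 4 higher and 1 lower in MaSC than in LP (backgrounds 15.8% and 23.1%). *Ppp1r14a*, the inhibitor of myosin phosphatase known as CPI-17, was higher (log2 difference 2.97, SE 0.61, adjusted p = 0.00268). Dense plaques and crosslinkers, through which filaments pull on the membrane, had 10 higher and 3 lower of 23. *Nexn* (nexilin), *Synm* (synemin) and *Fblim1* were higher by log2 differences of 5.45, 5.37 and 2.47. *Flnc*, filamin C, was 2.08 higher in MaSC than in LP (SE 0.21, adjusted p = 3.86e-05), and in AL it was lower than in LP by the wide margin of -3.79 (SE 0.21, adjusted p = 4.92e-07), the opposite direction to *Acta2*. *Nexn* and *Fblim1* were higher in AL than in LP (1.87 and 0.91), with 3 higher and 11 lower of the 23 (backgrounds 21.3% and 24.2%).

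Receptors and channels of the contraction signal (18 genes) had 7 higher and 2 lower in MaSC than in LP (backgrounds 15.8% and 23.1%). *Oxtr*, the oxytocin receptor, ranged over 7505 to 8393 in MaSC, 4367 to 5149 in AL, 161 to 272 in ML and 382 to 935 in LP, and the AL arrays lay clear of all LP and ML arrays. It was higher in AL than in LP by 3.03 (SE 0.56, adjusted p = 0.0011) and kept 61.8% of its MaSC level in AL. ALP gave 336 to 2398. *Cacna1c*, the pore of the L-type calcium channel, and *Kcnmb1*, the smooth muscle subunit of a calcium-activated potassium channel, were higher in MaSC than in LP by 5.39 and 4.66, and *Stim1*, a calcium store sensor, by 2.11. *Trpc6*, a cation channel, ran the other way between AL and LP (-5.66, SE 0.66). It was singled out after its values were seen. Genes of the relaxing nitric oxide and cyclic GMP branch (5 genes) had 3 higher and 0 lower in MaSC than in LP by limma, and also 0 lower at an unadjusted p under 0.05, *Prkg1* (2.32), *Mrvi1* (5.41) and *Rgs2* (2.79), so components of contraction and of relaxation were both higher in basal cells.

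Against LP, the regulators of this gene class did not rank as the class did. *Srf* ranged over 3398 to 3751 in MaSC and 6178 to 6683 in LP, lower in MaSC by -0.85 (SE 0.13, adjusted p = 0.000389), and lower in AL than in LP by -0.45 (SE 0.13, adjusted p = 0.0131). *Mrtfa*, an SRF coactivator, was higher in MaSC than in LP (1.13, SE 0.21) and lower in AL than in LP (-0.77, SE 0.21), and *Tead1*, a factor that binds CATTCC, behaved alike (0.75 and -0.60). *Myocd*, which encodes myocardin, was too dim to be tested, with values of 17.6 to 40.4 in AL, 23.9 to 42.0 in LP and 42.0 to 103 in MaSC. Of the 10 regulators tested, 3 were higher and 2 lower in MaSC than in LP (backgrounds 15.8% and 23.1%). In AL, 0 were higher and 5 lower than in LP (backgrounds 21.3% and 24.2%), and 0 and 7 at an unadjusted p under 0.05. In MaSC, 5 were higher and 1 lower than in ML (median log2 difference 0.56, backgrounds 27.1% and 32.4%). Against AL, 5 were higher and 1 lower in MaSC (median 0.45, backgrounds 28.1% and 31.3%). Between LP and ML, 5 were higher and 0 lower in LP (backgrounds 27.3% and 21.7%), and 6 and 0 at an unadjusted p under 0.05.

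Outside the list, 5 genes had profiles most like the mean of the 10 over 15 arrays, by Pearson's r. They were *Cacna1c* (0.990), *Id4* (0.982), *Moxd1* (0.981), *Sbspon* (0.979) and *Ecrg4* (0.978). *Cacna1c* had means of 1158 in MaSC, 28.4 in LP, 14.5 in ML and 164 in AL. *Id4*, an inhibitor of DNA binding, had means of 5447 in MaSC, 250.1 in LP, 158 in ML and 881 in AL. The arrays of a population move together, so these coefficients rest largely on 5 population means.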

How the data were processed

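RNA from 15 sorted samples, purified with RNeasy and amplified with NuGEN Ovation V2, was hybridised to Affymetrix Mouse Genome 430 2.0 arrays. The deposited values are intensities on a linear scale that the authors normalised with dChip, with version, model and baseline array not given in the sources used here. ALP sample numbers are later than the others, and scan dates were not used here, so a batch of ALP and the population cannot be told apart.

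Of 45101 probe sets, 34945 carried 1 gene symbol and 932 several. Those with several or none were left out. Intensities under 1 were set to 1 before log2. A probe set was tested if above the array median in at least 3 arrays, and the one with the highest mean log2 represented its gene. All 15 arrays were fitted together, with a mean for each population, in limma 3.58.1 (lmFit, eBayes) in R 4.3.3, with 10 pairwise comparisons sharing populations, two-sided tests, Benjamini-Hochberg adjustment over 12143 genes and a threshold of 0.05. SE is on the log2 scale. The script was tested on simulated data. Array number limits the precision.

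The 10 genes and all lists were chosen with earlier results of these data known. Named genes were the 10 members, up to 4 genes a list with the largest moderated t between MaSC and LP, marker genes, *Oxtr*, *Srf*, *Myocd* and the 5 most correlated genes. *Trpc6* was added after its values were seen. Alternatives covered the offset, filter, normalisation, probe set, arrays fitted, each array left out, a replicate block and the methods' t-test.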

Additional observations from a re-analysis of the deposited data

How the results depend on the processing

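Of the 100 differences of the 10 genes, 76 were called. Over 1879 alternative values of these, 1806 kept direction and call, 72 lost the call and 1 reversed, *Acta2* between AL and LP with the second brightest probe set (log2 difference -0.12). The number of genes called moved by over 1.5 times in these cases. Centring arrays on their medians gave 2 between AL and ALP, and the second brightest probe set gave 2 between ALP and LP. Fits to the 6 arrays of a pair gave 2 for MaSC against ALP, 7 for LP against ML, 0 for ALP against LP and 6 for ALP against ML. Without ALP replicate 3 there were 8 for LP against ML and 7 for AL against ALP. The methods' t-test called 7 for LP against ML unadjusted and, after Benjamini-Hochberg, 0 for MaSC against ALP, 0 for ALP against LP and 4 for ALP against ML. Causes were not tested. Leaving out 1 array at a time gave 1 to 7 for AL against ALP, 7 to 9 for AL against LP, 9 for AL against ML, 3 to 6 for ALP against LP, 8 to 10 for ALP against ML, 4 to 8 for LP against ML, 8 to 10 for MaSC against AL and 10 for the other MaSC comparisons. Folds that moved by over 1.5 times all involved ALP arrays: *Cnn1* in MaSC over ALP went from 37.8 to 108.5 without replicate 3, 21.6 without replicate 1 and 23.0 without replicate 2. Median centring moved the median of all genes to between -0.43 and 0.26, and the share of calls that were higher in the first population to between 18.7% and 73.9%, from 40.6% to 57.5%. Replicate numbers were not shown to pair the arrays. Same-numbered deviations correlated at -0.01 to 0.17 among MaSC, LP and ML, and at -0.23 to 0.21 over all populations. A replicate block on MaSC, LP and ML gave 7 for LP against ML, and on 15 arrays it removed 1 call, *Tagln* between AL and LP (adjusted p = 0.0634). Dim values near the floor, as for *Cnn1* in ML, carry little information on size.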
